A study of Xenopus laevis with 5 samples.

Results

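The genes described here encode pancreatic digestive proteases and pdia2, a protein disulfide isomerase known from the pancreas, measured in testes of the African clawed frog Xenopus laevis. They comprise 20 probes for 13 genes, out of 43653 gene probes and 8263 named genes on the array. The trypsin prss3, the elastases cela1.4 and cela3b, and pdia2 were chosen because simazine arrays gave higher values than control arrays in an earlier look at these same data. Their differences are therefore given as a description, with no test. The other 9 genes, with 14 probes, were taken by name alone, as every further cela, ctrb, cpa or prss1 gene with a probe. For pdia2 the label of the set does not name a protease, since this protein folds others and does not cut them.

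Tadpoles were raised for 90 days in water with 100 µg/L of simazine, a chlorotriazine herbicide (3 testis samples), or with 0 µg/L (2 testis samples), and were fed fairy shrimp and later pork liver. One-colour arrays were used, 1 for each testis sample. The labels do not say that the testes came from separate animals, so p-values here reflect only how these samples scatter, part of which may be technical. By the file headers, simazine 2 and control 1 were scanned together first, and simazine 1 and 3 and control 2 later, and only the later scan was corrected for a brightness trend over the array.

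Trypsins, chymotrypsins, elastases and carboxypeptidases are made by the acinar cells of the exocrine pancreas, which store them as inactive precursors in zymogen granules and release them into the gut. There enteropeptidase activates trypsin, which in turn activates the other precursors. Protein disulfide isomerases form and rearrange disulfide bonds in the endoplasmic reticulum, and pdia2 is the member of that family named for its expression in the pancreas of mammals.

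Markers of testis cells were measured on the arrays, about as often as other genes. Of the Sertoli and Leydig cell markers, 9 of 10 were well above background on all 5 arrays, as the scanner software judged it, and of the male germ cell markers 10 of 10, against 90.8% of all named genes. The 75th percentile of the signal lay between 1564 and 4883 intensity units on the simazine arrays, and was 6693 and 2380 on the controls. All log2 values below are the processed signal relative to this percentile of the same array. The scanner software marked 5.78% to 42.6% of the spots as non-uniform or outliers on the simazine arrays and up to 44.0% on the controls, with the arrays of the first scan far above the others. Levels of different probes are not compared with each other, since each probe has its own brightness. Where the signals of a list's probes are summed below, the sum leans on the brightest probes and is compared only between arrays.

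Transcripts of prss3, a trypsin of the exocrine pancreas, gave dim signals that were higher on every simazine array than on either control array. The brighter of its 2 probes read 92.8, 131 and 45.5 intensity units on simazine 1, 2 and 3, with error estimates from the scanner software of 13.0, 13.3 and 7.21 units. On controls 1 and 2 it read 39.2 and 13.1 units, with error estimates of 5.63 and 3.83 units. Relative to the array's 75th percentile these are log2 levels of -4.74, -5.22 and -5.10 in simazine testes, against -7.41 and -7.50 in control testes. The simazine samples lay close together, and the lowest of them stood 2.20 above the higher control.

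The mean log2 level of that probe was -5.02 ± 0.25 in simazine testes (SD, n = 3) and -7.46 ± 0.06 in control testes (SD, n = 2). The difference was 2.44 on the log2 scale, a 5.42-fold higher level in simazine testes. Without the simazine 2 spot, which the scanner software had marked, the difference was 2.54. Among arrays scanned together it was 2.20 in the first scan (simazine 2 against control 1) and 2.58 in the later scan (simazine 1 and 3 against control 2). Control 2 was not well above background, while the other 4 arrays were, so the control level rests on 1 measured array. Raising control 2 to the lowest signal counted as well above background on its array gave a difference of 2.36. In these bulk samples, fewer cells that hold a transcript and less of it per cell cannot be told apart.

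The dimmer probe of prss3, which reads the same RefSeq transcript, had the same order of groups. Its log2 levels were -6.57, -5.77 and -7.51 in simazine testes, against -8.09 and -8.55 in control testes. Only simazine 2 and control 1 were well above background, and these were the arrays of the first scan, where the difference was 2.33. Over all arrays the difference was 1.70. It was 1.36 with dim values raised to the lowest signal counted as well above background on their array. Spots around both prss3 probes were even between the groups, with local differences (simazine minus control, median of the 5 rows by 9 columns of spots around a probe) of -0.04 and 0.003 on the log2 scale.

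The elastase cela1.4 had higher values on every simazine array, with control signals close to background. Its only probe read 91.7, 98.9 and 22.5 intensity units on simazine 1, 2 and 3, against 23.5 and 3.78 units on controls 1 and 2. The control 2 reading is about the size of its error estimate, 3.77 units. In these units simazine 3 was not higher than control 1. The order of their log2 levels rests on the scaling by 75th percentiles of 1564 and 6693 units. The log2 levels were -4.75, -5.63 and -6.12 in simazine testes and -8.16 and -9.30 in control testes. The groups did not overlap, and the spread within each group was wider than for prss3.

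The mean log2 level of cela1.4 was -5.50 ± 0.69 in simazine testes (SD, n = 3) and -8.73 ± 0.81 in control testes (SD, n = 2), a difference of 3.23. Control 2 was not well above background. Raised to the lowest signal counted as such on its array, a setting chosen after the data were seen, it gave a difference of 2.25, which is a 4.76-fold higher level in simazine testes in place of 9.37-fold, so the size of the difference rests on that spot. The difference was 2.53 in the first scan and 3.86 in the later scan. The surrounding spots differed by 0.23, and were brightest on simazine 1 (local deviation 0.46). In the RefSeq gene table for assembly Xenopus_laevis_v10.1, cela1.4.L stands between cela1.5.L and cela1.3.L in a row of cela1 genes, so a probe of one may also bind transcripts of its relatives, which was not tested.

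The elastase cela3b, a further digestive elastase, was measured on every array by its brighter probe. Its log2 levels were -2.95, -3.43 and -3.31 in simazine testes and -4.36 and -4.15 in control testes. All simazine values lay above both control values, with a gap of 0.72 between the groups. The means were -3.23 ± 0.25 in simazine testes (SD, n = 3) and -4.25 ± 0.15 in control testes (SD, n = 2), a difference of 1.02, or 2.03-fold. None of the 5 spots was marked, all were well above background, and the difference was 0.93 in the first scan and 1.02 in the later scan. Spots around it differed by 0.12.

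The dimmer cela3b probe gave a similar mean difference, 1.02, but its groups overlapped. Its log2 levels were -6.27, -7.48 and -5.78 in simazine testes and -8.51 and -6.56 in control testes. Simazine 1 and control 1 were not well above background there. Within the later scan the difference shrank to 0.53, against 1.03 in the first scan. So the brighter probe is the only one of this gene that separates the samples by group. Genes of the lists below that were well above background on 0 arrays also had higher simazine means. Their differences over all spots ran from 0.36 (gcg) to 1.19 (serpinc1), and the 1.02 of the dimmer cela3b probe lies within that range.

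**Figure D1:**
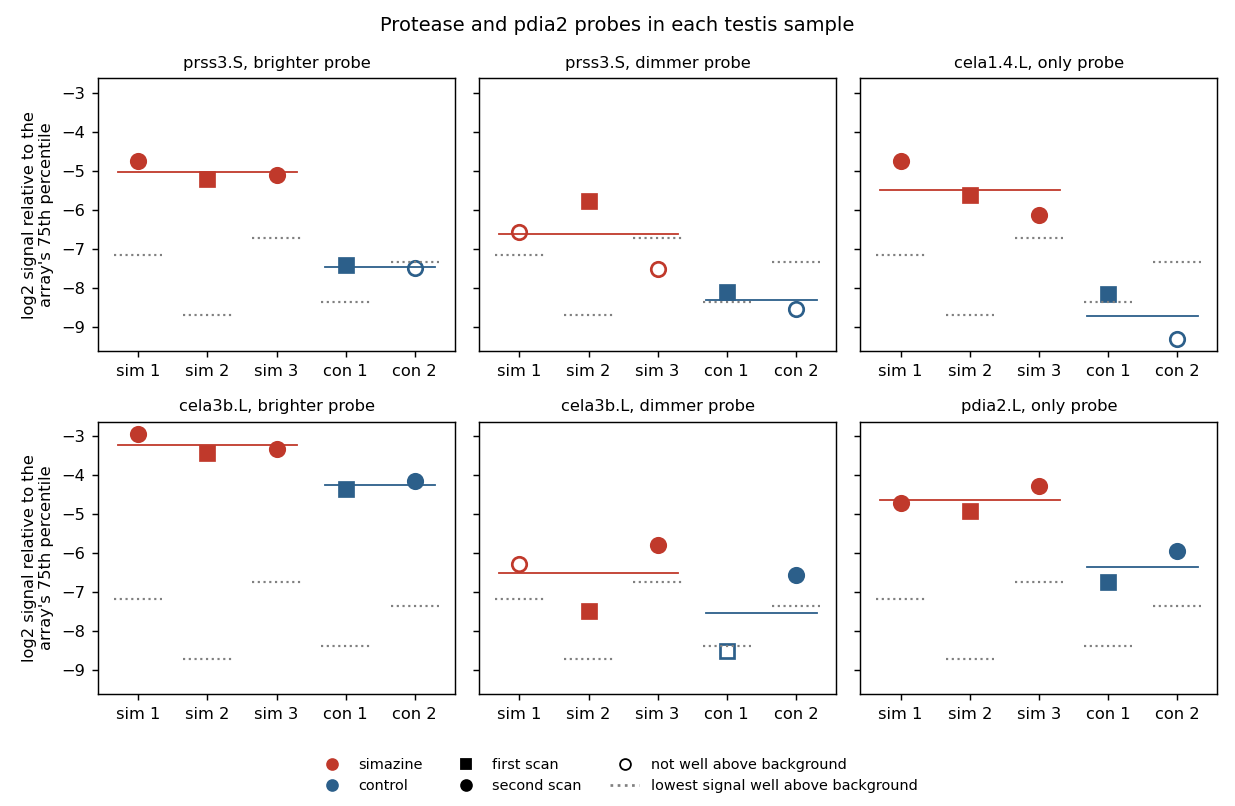
Log2 signal of the 6 probes of prss3, cela1.4, cela3b and pdia2 relative to the array's 75th percentile (vertical axis) on 3 simazine and 2 control arrays (horizontal axis); horizontal lines are group means, squares are arrays of the first scan and circles those of the later scan, open symbols are not well above background, and dotted lines mark the lowest signal counted as well above background on that array. All simazine points lie above both control points except for the dimmer cela3b probe, and control 2 is open for both prss3 probes and for cela1.4.

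The isomerase pdia2 was well above background on every array, with no marked spot. However, it lies in an area of the array where most spots also gave higher values on the simazine arrays. Its only probe had log2 levels of -4.71, -4.91 and -4.27 in simazine testes, against -6.74 and -5.94 in control testes. The groups did not overlap, and the lowest simazine value stood 1.03 above the higher control. The means were -4.63 ± 0.32 in simazine testes (SD, n = 3) and -6.34 ± 0.57 in control testes (SD, n = 2), a difference of 1.71, with 1.84 in the first scan and 1.45 in the later scan.

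The spots around pdia2 differed by more than pdia2 itself. Their local deviation from the 5-array median was 0, 0.32 and 0.53 on simazine 1, 2 and 3, against -2.32 and -1.78 on controls 1 and 2. The local difference of 2.33 was thus larger than the 1.71 of the gene. Of the 44 gene spots within 2 rows and 4 columns, 29 were higher on every simazine array than on both controls. With the local deviation subtracted on each array, an alternative chosen after the data were seen, the pdia2 difference turned to -0.62.

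Agreement between the groups across neighbouring spots was also lower around pdia2 than around the other 19 probes. Across its 44 neighbours, the correlation of mean simazine with mean control log2 signal was 0.59, against 0.91 to 0.997 around the others (median 0.99) and 0.97 over all gene spots. These correlations are across spots of the same arrays and are given as a description. Median values of the control arrays were lowest in the rows just before the pdia2 spot, and this ended in the row after it. The plot of brightness around that spot shows this. In the row just before it, the medians were 0, 1.53 and 2.31 on simazine 1, 2 and 3. They were -3.81 and -3.36 on controls 1 and 2. What gave this pattern was not tested. No probe of pdia2 outside the area was on the array, so no second measurement of this gene was at hand.

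**Figure D2:**
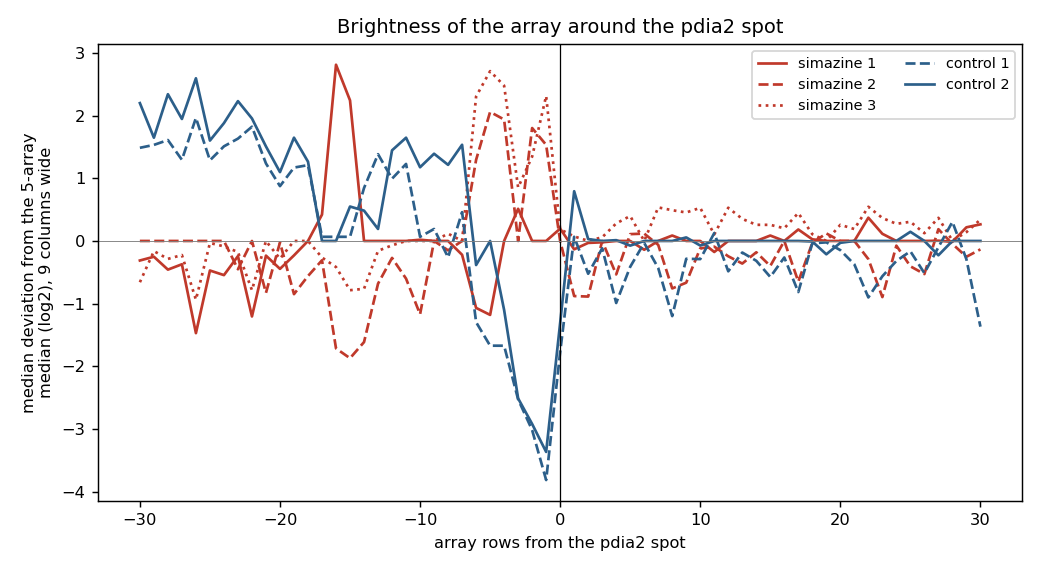
Median log2 deviation from the 5-array median over 9 columns of spots (vertical axis) by the number of array rows from the pdia2 spot (horizontal axis), 1 line per array with simazine arrays in red and control arrays in blue. At the pdia2 row the medians were 0.20, 0 and 0.18 on simazine 1, 2 and 3 and -1.77 and -1.31 on controls 1 and 2.

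The remaining digestive protease genes, taken by name, gave no call. Of their 14 probes, 11 could be tested, and 0 passed an adjusted p of 0.05 (limma, Benjamini-Hochberg over all probes), where 0.00314% of all 31883 tested probes did. At an unadjusted p under 0.05 the count was also 0 of 11, against 8.5% of all probes. Only 1 of the 11 had groups that did not overlap with simazine higher, where 10.1% of all tested probes did, and 0 had groups that did not overlap with simazine lower, against 10.7%. For comparison, 5 of the 6 probes of the chosen genes did not overlap, which follows from how they were chosen. The smallest adjusted p among the 11 was 0.71.

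Among the elastases, the relatives of cela1.4 had no call and overlapped between the groups. The nearest listed neighbour with a probe, cela1.5, had log2 levels of -4.14, -3.92 and -4.47 in simazine testes and -3.92 and -4.28 in control testes. These overlapped, with a difference of -0.03 (SE 0.37, adjusted p = 0.997, limma) once the marked spots on simazine 2 and control 1 were left out. The next gene with a probe, cela1.2, was well above background on 1 simazine and 1 control array and differed by 0.37 (SE 0.48, adjusted p = 0.97, limma). For cela1.1, the brighter probe reads the S copy and differed by -0.22 (SE 0.41), and the probe of the L copy differed by -0.23 (SE 0.46), each with an adjusted p of 0.97 (limma). The dimmer cela1.5 probe differed by 0.17 (SE 0.68, adjusted p = 0.98, limma), with 1 array of each group well above background. The elastase cela2al was well above background only on simazine 1 and was not tested.

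The trypsin prss1.2, which in the RefSeq table stands next but one to prss3, had log2 levels of -3.26, -4.33 and -4.03 in simazine testes and -5.08 and -3.93 in control testes. The difference was 0.63 (SE 0.51, adjusted p = 0.97, limma), with control 2 inside the simazine range. Its spot also lies in a distorted area, in the opposite sense to pdia2, with spots around it lower by 1.13 in simazine than in control arrays. With the local deviation subtracted the difference was 1.76. A distorted area means here that the local deviation exceeded 0.5 on the log2 scale on some array. The term names this deviation only, and its cause was not tested. It held for 6 of the 20 probes, and for 5 of the 17 tested ones against 26.3% of all tested probes.

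Chymotrypsinogens cut after aromatic residues once activated, and here the groups overlapped for ctrb2. It had log2 levels of -3.54, -3.19 and -3.88 in simazine testes and -3.40 and -3.93 in control testes, a difference of 0.22 without marked spots (SE 0.37, adjusted p = 0.97, limma). The probe of ctrb1 was well above background on 0 of 5 arrays, so it has no fold.

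Carboxypeptidase A1 trims residues from the end of peptides, and cpa1 was read by 4 probes, 2 for each gene copy. The brightest, for the S copy, had log2 levels of -1.31, -1.42 and -1.29 in simazine testes and -1.86 and -1.61 in control testes. These did not overlap, and the gap of 0.19 was small beside the values of prss3. The difference was 0.40 (SE 0.20, adjusted p = 0.81, limma), and the spots around it differed by 0.13. The other 3 cpa1 probes all lie in distorted areas and disagreed, with differences of 0.99, -0.23 and -2.35. For the last of these, simazine 2 had a local deviation of -1.67. The cpa6 probe, for a carboxypeptidase that is not known as a digestive enzyme, was marked on 3 arrays and had too few values for the test, with log2 levels of 1.00, 1.59 and 1.09 in simazine testes and 1.43 and 0.60 in control testes.

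**Figure D3:**
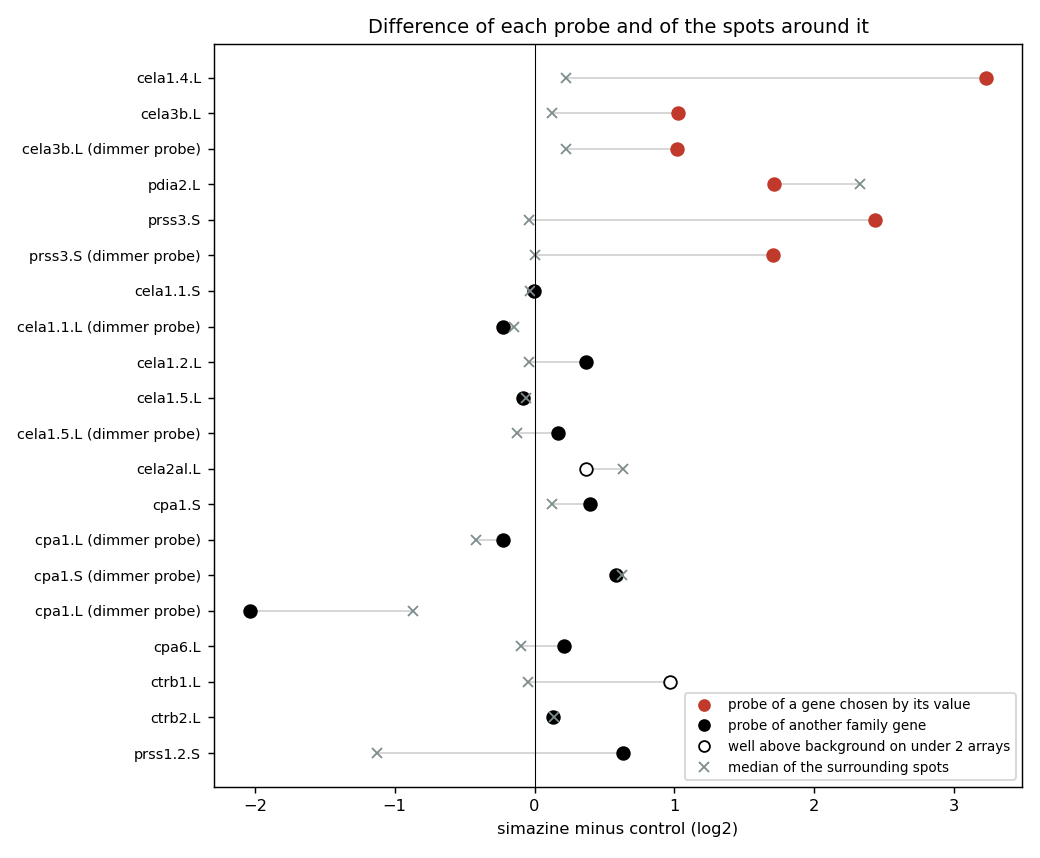
Difference of mean log2 signal, simazine minus control (horizontal axis), for each of the 20 probes (circles, all spots) and for the median of the spots around it (crosses); red marks probes of the genes chosen by their value, and open circles are probes well above background on under 2 arrays. The crosses of prss3, cela1.4 and cela3b lie near 0, between -0.04 and 0.23, while that of pdia2 lies at 2.33, beyond its circle.

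Other products of the acinar cell were examined from a list of further pancreatic enzymes. Of 10 such genes tested, 8 of them well above background on every array, 0 passed the adjusted p (limma) and 1 passed an unadjusted p of 0.05, against 0% and 7.65% of the 6050 genes tested. Their median difference was 0.38, against 0.09 for all genes tested, and 2 had groups that did not overlap with simazine higher, against 11.7% of all genes. Both of these, cpb1 and pnliprp2, lie in distorted areas. With marked spots kept and distorted areas left out, the median was 0.09 over 6 genes, against 0.0009 for all genes tested so. The summed signal of the list's probes, as a percentage of the 75th percentile, ranged from 384% to 509% on simazine arrays and from 418% to 443% on control arrays. The groups thus overlapped for this sum, most of which came from 1 probe, that of ctrc. Its log2 levels were 1.63, 2.05 and 1.52 in simazine testes and 1.79 and 1.71 in control testes, with simazine 1 and 3 marked.

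The gene past the unadjusted p was cpb1, pancreatic carboxypeptidase B. It had log2 levels of -5.33, -6.48 and -6.01 in simazine testes and -7.74 and -7.45 in control testes, which did not overlap. The difference was 1.65 (SE 0.40, adjusted p = 0.27, limma), with 2 of the simazine and 1 of the control arrays well above background. Its spot lies in a distorted area, where surrounding spots differed by 0.66. It has no value once distorted areas are left out.

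Amylases, which digest starch, had no call. For amy2a the log2 levels were -3.64, -5.78 and -4.80 in simazine testes and -4.14 and -3.47 in control testes, with a difference of -0.94. Without the marked spot on control 1, which leaves 1 control array, the difference was -1.27. For amy2b they were -2.95, -3.92 and -3.53 in simazine testes and -4.09 and -3.46 in control testes, and the difference was 0.21 (SE 0.45, adjusted p = 0.97, limma). Both amylases thus had overlapping groups, and the amy2a spot lies in a distorted area.

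The lipases cel.1 and cel.2, which hydrolyse cholesteryl esters, differed by -0.65 (SE 0.42) and 0.45 (SE 0.33), with adjusted p of 0.95 and 0.97 (limma). The pancreatic lipase relative pnliprp1 was well above background on 2 simazine arrays and no control array. Its groups overlapped, with simazine 2 at -8.25 and control 2 at -7.80, and the difference was 1.04 (SE 0.60, adjusted p = 0.88, limma). With control values raised to the lowest signals well above background, it was 1.402-fold higher in simazine testes. Its spot lies in a distorted area where surrounding spots differed by 0.70. The fold of 1.402 sets the mean of the simazine arrays as read against the lowest signals well above background on the control arrays. That mean includes simazine 3, which was not well above background, so the fold is not a lower limit. The trypsin prss2 varied widely within the groups, with log2 levels of -3.86, -5.21 and -2.50 in simazine testes and -5.70 and -3.28 in control testes. Its difference was 0.63 (SE 1.09, adjusted p = 0.97, limma).

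Acinar factors and granule proteins were read by 3 genes, and 0 passed the adjusted or the unadjusted threshold (limma). The acinar transcription factor ptf1a was well above background on every array, with log2 levels of -0.31, -0.36 and -0.69 in simazine testes and -0.15 and -0.22 in control testes. Its difference was -0.27 (SE 0.22, adjusted p = 0.97, limma), opposite in sign to prss3. The granule protein cuzd1 differed by -0.19 (SE 0.50, adjusted p = 0.98, limma).

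Markers of the endocrine pancreas gave 0 calls among 13 tested genes (limma), with 1 at an unadjusted p under 0.05 and a median difference of 0.27. Of 15 with a probe, 12 were well above background on all arrays, and their summed signal ranged from 442% to 533% of the 75th percentile on simazine arrays and from 471% to 530% on control arrays. Insulin (ins) was well above background on all arrays and differed by 1.05 (SE 0.67, adjusted p = 0.91, limma). Its log2 levels were -4.18, -5.69 and -4.36 in simazine testes and -6.51 and -5.08 in control testes, so control 2 lay inside the simazine range. The ins spot lies in a distorted area where surrounding spots differed by 0.32. It has no value once distorted areas are left out. Glucagon (gcg) was well above background on 0 arrays. The homeobox gene isl1 had a difference of -1.21, with 2 simazine arrays and 1 control array unmarked. For nkx2-2, 2 simazine arrays and no control array were well above background, and the difference was 4.13 (SE 1.63, adjusted p = 0.67, limma). With control values raised to the lowest signals well above background, nkx2-2 was 6.50-fold higher in simazine testes. Simazine 1, at -7.94 and not well above background, was counted as read, so this fold is not a lower limit.

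Markers of the intestine, stomach and liver were counted for tissues that also make or activate digestive enzymes. Of the intestine markers, 0 of 10 tested genes passed the adjusted p (limma) and 1 passed the unadjusted one, with a median difference of 0.18. That gene was lct.1, a lactase, at -2.02 (SE 0.37, adjusted p = 0.17), in a distorted area where surrounding spots differed by -1.71. The homeobox gene cdx2 differed by 0.69 over all spots and also lies in a distorted area. It differed by 1.19 with the marked spots on simazine 2 and control 1 left out, which leaves 1 control array. Enteropeptidase (tmprss15), which activates trypsin, had log2 levels of -5.31, -5.63 and -5.24 in simazine testes and -4.18 and -4.34 in control testes. It lay lower on every simazine array than on either control, opposite to prss3, with a difference of -1.13 over all spots. The difference was -0.94 with the marked spots on simazine 2 and control 1 left out, which leaves 1 control array.

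Of the liver markers, 0 of 14 passed the adjusted p and 2 the unadjusted one (limma), ass1 at -1.12 (adjusted p = 0.39) and fgb at -1.67 (adjusted p = 0.43), with a list median of 0.05. Of 4 stomach markers, 0 passed either threshold (limma), and atp4b and pga4 had the smallest p, at -0.48 (adjusted p = 0.79) and 0.52 (adjusted p = 0.97). Of 13 intestine and 17 liver genes with a probe, 11 and 15 were well above background on all arrays, and of 4 stomach genes all were. The summed signals of the intestine list ran from 1002% to 1287% on simazine arrays and from 1220% to 1351% on control arrays, and those of the liver list from 814% to 974% on simazine arrays and 996% to 1003% on control arrays. By these sums, which lean on the brightest probes, neither list was higher on the simazine arrays. The brightest intestine probe, that of dpp4, had log2 levels of 2.85, 2.96 and 1.82 in simazine testes. In control testes it had 3.06 and 3.12, and it was marked on 4 arrays. In the liver list fgb had -1.67, -2.44 and -1.62 in simazine testes and -0.25 and 0.73 in control testes, in a distorted area. Sums without these probes were not taken. The part of RNA from other organs in the prss3, cela1.4 and cela3b values was not tested.

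**Figure D4:**
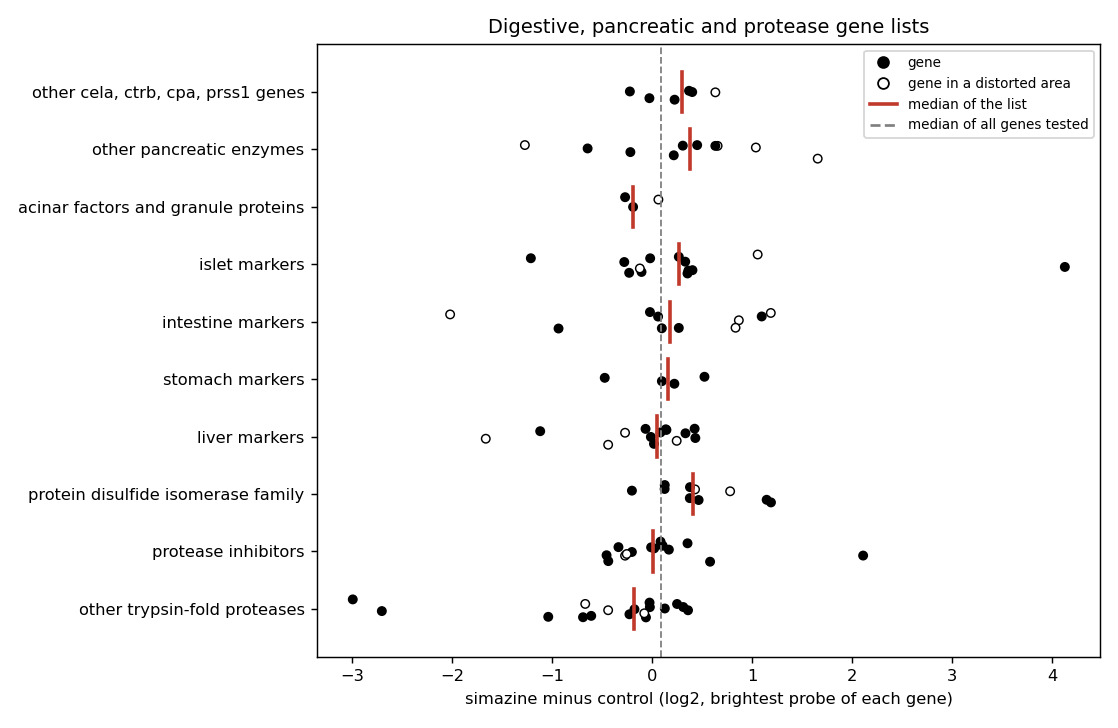
Difference of log2 signal, simazine minus control (horizontal axis), for each tested gene of 10 lists (rows), with open circles for genes in distorted areas, red bars for list medians and the dashed line for the median of all genes tested, 0.09. List medians lie between -0.19 and 0.40.

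Relatives of pdia2 were measured on nearly all arrays and had no call. Of 15 protein disulfide isomerases and oxidases with a probe, 14 were well above background on all arrays. Among 10 tested, 0 passed the adjusted or the unadjusted threshold (limma), with a median difference of 0.40, against 0.09 for all genes tested. With marked spots kept and distorted areas left out, the median was 0.13 over 13 genes. The main isomerase p4hb had log2 levels of 3.16, 4.69 and 2.68 in simazine testes and 4.80 and 2.98 in control testes, and pdia3 had 3.60, 2.96 and 2.41 in simazine testes and 2.81 and 2.91 in control testes. Both overlapped between the groups and carried too many marked spots for the test. With marked spots kept and distorted areas left out, their differences were -0.38 and 0.13 (adjusted p = 1.00 for each, limma). The smallest unadjusted p belonged to the sulfhydryl oxidase qsox1, at 0.78 (SE 0.39, adjusted p = 0.87), and to txndc12, at 1.14 (SE 0.67, adjusted p = 0.90, limma). The qsox1 spot lies in a distorted area where surrounding spots differed by 0.62, and its difference over all spots with the local deviation subtracted was -0.15.

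Inhibitors of serine proteases were counted next, since they bind and block trypsin-like and elastase-like enzymes. Of 14 tested, 0 passed the adjusted p and 1 the unadjusted one (limma), with a median of 0.004. That gene was serpina3, an antichymotrypsin relative, with log2 levels of -4.08, -3.84 and -3.89 in simazine testes and -5.58 and -6.10 in control testes. The groups did not overlap, and the difference was 1.90 over all spots. It was 2.11 with the marked spots on simazine 2 and control 1 left out, which leaves 1 control array. By contrast serpina1, the main plasma inhibitor of elastase, differed by 0.08 (SE 0.33, adjusted p = 0.98), and itih2 by 0.58 (SE 0.37, adjusted p = 0.94, limma).

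The receptor that trypsin activates on cells, f2rl1, had log2 levels of 0.06, 0.58 and -0.17 in simazine testes and 0.95 and 0.83 in control testes. It was lower in simazine testes without overlap, by -0.73 over all spots, and 3 marked spots kept it from the test. Its relative f2rl2 differed by -0.01 (SE 0.38, adjusted p = 1.00, limma). Of the 5 activators and receptors on the array, 2 could be tested, and 0 passed the adjusted or the unadjusted threshold (limma).

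Proteases of the trypsin fold from other tissues gave no call with marked spots left out. Of 17 tested, 0 passed the adjusted p and 2 the unadjusted one (limma), with a median of -0.18. Groups did not overlap for 2 of them with simazine higher and for 5 with simazine lower, against 11.7% and 11.3% of all genes tested. On values with marked spots kept and distorted areas left out, 2 of 17 fell past the adjusted p, where 0.734% of the 6129 genes tested fell and 0 rose. These were prss8, prostasin, a membrane protease of epithelia, at -3.27 (adjusted p = 0.031), and ovch1, an ovochymase, at -2.71 (adjusted p = 0.049, limma). The levels of prss8 were -5.44, -5.43 and -5.55 in simazine testes and -1.94 and -2.48 in control testes on the log2 scale. Those of ovch1 were -4.53, -4.29 and -4.78 in simazine testes and -1.70 and -1.95 in control testes. Both were thus lower on every simazine array, opposite in sign to prss3.

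Markers of oocytes also separated the groups. Their list was chosen with earlier results of these data known, so its counts are a description. Of 16 oocyte genes tested, 13 passed the unadjusted p, against 7.65% of all genes tested, and 0 passed the adjusted p (limma). On every simazine array, 14 of the 16 were lower than on either control, against 11.3% of all genes. With marked spots kept and distorted areas left out, 8 of 14 fell past the adjusted p (limma), against 0.734% of all genes tested. The POU-domain factor pou5f3.3 differed by -6.03 (adjusted p = 0.059) and the histone chaperone npm2 by -3.20 (adjusted p = 0.080, limma). The summed signal of the list ranged from 695% to 921% of the 75th percentile on simazine arrays and from 5509% to 6650% on control arrays. All 19 listed genes with a probe were well above background on simazine 2 and 3 and both controls. Whether the difference in oocyte transcripts has a part in the values of prss3, cela1.4, cela3b and pdia2 was not tested.

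By the shape of their values over the 5 arrays, the brightest probes of the other chosen genes followed that of prss3, with Pearson r of 0.97 for cela1.4, 0.97 for cela3b and 0.92 for pdia2. This too follows from how they were chosen. Among the members taken by name, the brightest cpa1 probe had the highest r with prss3, 0.91, and an r of 0.77 with cela1.4. Among 7557 other genes compared, 206 had an r of 0.9 or more with prss3 and 127 with cela1.4. The nearest by r were h4c1 (0.998), fshb (0.994), mrm2 (0.994) and pax5 (0.992), of which h4c1 and pax5 lie in distorted areas. Over all spots pax5 differed by 3.66, more than the 2.44 of prss3, while h4c1, fshb and mrm2 differed by 0.67, 0.52 and 0.62. For cela1.4 the nearest were nipsnap1 (0.998), mtmr10 (0.993), slc41a3 (0.990) and nkx6-2 (0.990). Their own differences, 0.50 to 0.73 on the log2 scale, were far smaller than the 3.23 of cela1.4.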

How the data were processed

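Per the file headers, the scanner software (Agilent Feature Extraction 10.7.3.1) gave each spot's intensity as a background-subtracted processed signal with an error estimate, and flags for quality. A second file deposited by the authors holds log2 values of 27228 probes. Set against the scanner tables, 99.3% to 99.9% of its values equal log2 of the processed signal plus 1 constant per array, within 0.01; what set the constant is unknown. Column medians were 0.958, 1.02 and 0.949 for simazine 1, 2 and 3 and 1.06 and 0.951 for controls 1 and 2.

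The processed signal was taken relative to each array's 75th percentile over gene spots. Spots of 1 probe were averaged. Control spots and, for tests, marked spots were left out, and saturated spots were kept. Values of single arrays in the text include marked spots. A limma difference can thus rest on fewer arrays than the values beside it, for many genes on 1 control array. Probes were tested if well above background on at least 2 arrays with at least 3 values and 1 or more per group, with limma 3.58.1 in R 4.3.3 (two-sided, Benjamini-Hochberg over all probes tested). The procedure was tested on simulated data. A gene was its brightest probe. Symbols came from RefSeq accessions, which named 10012 of 36331 accessions, and L and S copies were joined. Probe sequences were not used here. The number of arrays limits the precision.

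The members and lists (pancreatic enzymes, acinar factors, islet, intestine, stomach, liver, kidney, blood, muscle, Sertoli and Leydig, male germ cell and oocyte markers, isomerases, inhibitors, activators, other proteases) were chosen with earlier results of these data known. Named genes are all member genes, up to 4 called genes or else the 2 with the smallest p per list, and defining markers; 1 gene that this rule names is not reported here. The genes most like prss3 and cela1.4 were the 4 of highest r among named genes well above background on 3 or more arrays. Alternatives were the treatment of marked spots and distorted areas, scan as a block, each array left out, normexp (offset 50, on median signals, since the tables used here hold no mean signal), quantile normalization, the authors' table and the filter on dim probes.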

Additional observations from a re-analysis of the deposited data

How the results depend on the processing

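The higher values of prss3, cela1.4 and cela3b in simazine testes kept their sign under all alternatives run. These genes were chosen for this difference, and the groups of their brightest probes did not overlap. Leaving out 1 array or taking a single scan could therefore not change the sign, and only the size is informative there. Leaving out 1 array gave 2.36 to 2.72 for prss3, 2.66 to 3.80 for cela1.4, 0.88 to 1.13 for cela3b and 1.31 to 2.12 for pdia2. Normexp adds an offset of 50 intensity units, which by construction compresses dim probes. With the 75th percentile it gave 1.63 for prss3, 1.59 for cela1.4, 0.77 for cela3b and 1.22 for pdia2, and with quantile normalization 0.79, 1.12, 0.56 and 0.73 in the same order. Under the first of these the median of all probes was 0.26, against 0.10 in the values reported. The difference of cela1.4 with control 2 raised to the floor was 2.25. That of pdia2 reversed to -0.62 with local deviations subtracted, and pdia2 had no value with distorted areas left out. Raising to the floor and subtracting local deviations were chosen after the data were seen.

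The count of probes past the adjusted p (limma) was 1, and 2709 passed the unadjusted p. It was 372 with marked spots kept, 108 with distorted areas also left out (122 at a limit of 1), 258 with scan as a block on those values, 282 with normexp and quantile normalization, 96 with quantile normalization, 243 with the authors' log2 table and 4 with probes well above background on all arrays. It was 0 with scan as a block, within the later scan, with normexp and the 75th percentile and with no filter on dim probes (3823, 2914, 1492 and 3311 at the unadjusted p), and 0 to 0 on leaving out 1 array (1245 to 3297 at the unadjusted p). The first scan alone holds 1 array per group and gives no test. Among the family, enzyme and acinar genes, 0 of 19 tested were called (limma, 1 at the unadjusted p), and 0 under every alternative, with a smallest adjusted p of 0.17 to 1.00. No paired analysis was possible because the labels give no replicate numbers shared by the groups. With 2 control arrays, 1 of them not well above background for prss3 and cela1.4, control levels of these genes rest on few measurements.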

Other observations

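Markers of 3 further tissues were listed, with values only. Of 5 kidney markers tested, 0 passed the adjusted or the unadjusted p (limma), and slc22a6 differed by 0.51 (adjusted p = 0.97). Of 7 muscle markers, 0 passed either threshold (limma), and tnnt3 differed by 0.35 and actn3 by -0.24 (adjusted p = 0.97 for each). Of 9 blood markers, 0 passed the adjusted p and 4 the unadjusted one (limma), against 7.65% of all genes tested for the latter. The smallest p were those of hbe1, a globin, at -2.40 (adjusted p = 0.073), and mpo, myeloperoxidase, at 6.05 (adjusted p = 0.097). Spots around hbe1 and mpo differed by -2.22 and 1.29. All 4 genes past the unadjusted p lie in distorted areas. With marked spots kept and distorted areas left out, 0 of 6 blood markers passed the unadjusted p (limma). Summed signals of the blood list ran from 16145% to 18120% of the 75th percentile on simazine arrays and from 13205% to 16489% on control arrays. Most of this sum came from the probe of hbg1, which was marked on 3 arrays. Its log2 levels were 7.17, 6.98 and 7.18 in simazine testes and 6.69 and 7.10 in control testes, which overlapped.

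Among the testis markers themselves, 0 of 7 Sertoli and Leydig genes passed either threshold (limma), with wt1 at -0.60 (adjusted p = 0.97) and cyp17a1 at 0.32 (adjusted p = 0.97) of smallest p. Of 5 male germ cell genes, 0 passed the adjusted p and 1 the unadjusted one (limma). This was zpbp2, a sperm protein, at 1.33 (SE 0.33, adjusted p = 0.47), and ddx25 differed by -1.96 in a distorted area (adjusted p = 0.89, limma).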
